A study of Homo sapiens with 4 samples.

Results

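The regions described here were p53 ChIP-seq peaks lying between genes but not far from them: each peak's midpoint was outside every RefSeq protein-coding gene and more than 1 kb but at most 100 kb from the nearest end of one. They numbered 209 and 441 peaks in CASM34 libraries 1 and 2, and 189 and 738 peaks in p53WT libraries 1 and 2. Merged over the libraries wherever peaks overlapped by 1 bp, these 1577 peaks formed 1085 regions, 14.0% of the 7727 regions called on chromosomes 1 to 22 and X. ChIP-seq recovers the DNA fragments that an antibody pulls down with a protein. H1299 is a line of non-small-cell lung carcinoma cells whose genotype is given as p53-/-, and the cells of both groups share that genotype. They expressed the CASM34 mutant of p53 in one group and wild-type p53 in the other, with 2 libraries per group. Chromatin cut with micrococcal nuclease and sonication was precipitated with the DO-1 antibody against p53 in all 4 libraries, and the series is titled as a study of cancer-associated synonymous mutations and the DNA damage response. No label gives the base change of CASM34, an inducing treatment, or whether the libraries of a group came from separate cultures, so p-values here reflect no more than the variation among these libraries, and that variation may be technical.

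p53 is a transcription factor that binds DNA as a tetramer, on a response element built from a pair of decamers. It is known for switching on genes of cell cycle arrest, apoptosis, DNA repair and metabolism, CDKN1A (the cyclin-dependent kinase inhibitor p21) among them, and several long non-coding RNAs. Many of its known binding sites lie in promoters or first introns, and others lie between genes, at enhancers or at the start sites of non-coding RNAs.

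The sequence at the start of the miR-34a locus is shown first because it carries a complete p53 response element under a region called in both groups. Only the peak of CASM34 library 2 holds all of that element. The region, chr1:9182019-9182700 (GRCh38), lies 52.4 kb from H6PD, the hexose-6-phosphate dehydrogenase of the endoplasmic reticulum and the nearest protein-coding gene. It covers the start sites of a divergent pair of long non-coding RNAs whose first bases overlap: MIR34AHG, the host transcript of the p53-induced miR-34a, which starts at position 9182338 and runs on the minus strand, and LNCTAM34A, its antisense partner, which starts at position 9182204 and runs on the plus strand. The part of the RefSeq promoter window of LNCTAM34A that lies in the region (build GRCh38.p14, plus strand, chr1:9182019-9182253, 235 bases) is given 5′ to 3′, with the capitals marking exact matches to the p53 decamer.

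LNCTAM34A: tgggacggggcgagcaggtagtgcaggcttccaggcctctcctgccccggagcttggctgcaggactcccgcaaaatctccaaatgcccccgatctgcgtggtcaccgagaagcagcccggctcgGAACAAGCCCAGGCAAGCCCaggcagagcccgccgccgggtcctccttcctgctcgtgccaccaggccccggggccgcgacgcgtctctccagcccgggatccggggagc

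The decamers occupied positions 9182144 to 9182153 and 9182154 to 9182163 and touched each other. The peak of CASM34 library 2 spans the whole region and holds both decamers. The peak of p53WT library 2, chr1:9182159-9182367, starts inside the second decamer and leaves out the first. The deposited summits lay at position 9182243 in CASM34 library 2 and at position 9182270 in p53WT library 2, both downstream of the decamers. CASM34 library 2 had a fold of 5.79 and a −log10 q of 7.76 here, and p53WT library 2 had a fold of 5.64 and a −log10 q of 6.05, both being the authors' values for each peak. Neither library numbered 1 listed a peak at the locus. Exact matches to the p53 consensus decamer, a pattern that reads the same on both strands, occurred in 6.53% of the 27195 RefSeq promoter windows of 300 bases and in 7.35% of those of long non-coding RNAs. A pair of exact decamers no more than 13 bases apart occurred in 8 of the 27195 windows, or 0.0294%, and LNCTAM34A was one of them. Of the 23 genes whose promoter window lay under a region, 2 had an exact decamer in the window and 1 had such a pair. A match of letters is a description and does not by itself mark a bound site.

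In all, and with the miR-34a locus included, promoter windows of 23 genes lay under 23 regions, 2.12% of the 1085. All 23 were long non-coding RNAs, which the choice of regions all but fixes, since it keeps to more than 1 kb from protein-coding genes and the promoter table holds only protein-coding genes and long non-coding RNAs. Of these, 7 genes (30.4%) lay under regions called in at least 2 libraries, as did 22.4% of all regions of the class, and 14 (60.9%) under regions of p53WT library 2 alone, against 47.6% of the class. These 14 included MIR31HG and MIRLET7A1HG, the host transcripts of miR-31 and of let-7 miRNAs, and CHASERR. A pair of these promoters was made of tandem repeats, and both lay under regions called in the libraries numbered 2 of both groups. They are shown because the repeat can be read off the letters. LINC01596 on chromosome 4 (plus strand, chr4:189881265-189881494, 230 bases) matched itself at 90.3% of bases when shifted by 43 bases, and LOC105378193 on chromosome 13 (minus strand, chr13:112014931-112015154, 224 bases) at 89.0% when shifted by 36 bases, both measured on the whole window of 300 bases.

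LINC01596: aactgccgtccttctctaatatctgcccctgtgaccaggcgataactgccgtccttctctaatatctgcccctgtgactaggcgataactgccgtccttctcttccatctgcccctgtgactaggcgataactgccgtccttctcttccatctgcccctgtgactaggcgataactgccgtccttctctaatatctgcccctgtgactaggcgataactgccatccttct

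LOC105378193: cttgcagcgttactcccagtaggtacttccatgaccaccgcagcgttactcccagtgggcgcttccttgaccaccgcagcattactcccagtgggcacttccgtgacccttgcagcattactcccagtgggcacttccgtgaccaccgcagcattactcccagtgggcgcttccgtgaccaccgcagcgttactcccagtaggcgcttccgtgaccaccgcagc

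Over all 27195 promoter windows, 49, or 0.180%, matched themselves at 80% or more at some shift of 10 to 100 bases, against 2 of the 23 under regions. The search for repeats was added after these sequences had been read. At LINC01596, CASM34 library 2 had a −log10 q of 16.4 and p53WT library 2 had 13.04, and the region lay 59.5 kb from FRG1.

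The number of intergenic peaks near genes followed the library more than the group. CASM34 averaged 325 ± 164 peaks and p53WT averaged 463.5 ± 388 peaks (SD, n = 2 each), and the groups overlapped. The difference of −138.5 peaks had p = 1 in an exact two-sided permutation test over the 4 libraries, a design in which p cannot go below 0.333. Between the libraries numbered 1, CASM34 had 20 more peaks than p53WT, and between those numbered 2 it had 297 fewer. As a share of each library's peaks on these chromosomes, they made up 12.3% of 1698 and 13.8% of 3196 in CASM34 libraries 1 and 2, against 11.9% of 1591 and 14.9% of 4946 in p53WT libraries 1 and 2. Counting error alone gave exact 95% intervals (Clopper-Pearson) of 10.8% to 14.0% and 12.6% to 15.04% in CASM34 libraries 1 and 2 and 10.3% to 13.6% and 13.9% to 15.9% in p53WT libraries 1 and 2. The difference between groups was −0.35 percentage points (exact permutation p = 1). Peak lists do not give the number of reads, so the depth behind each list is unknown, and a list without a peak at some place says nothing firm about p53 binding there.

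**Figure D1:**
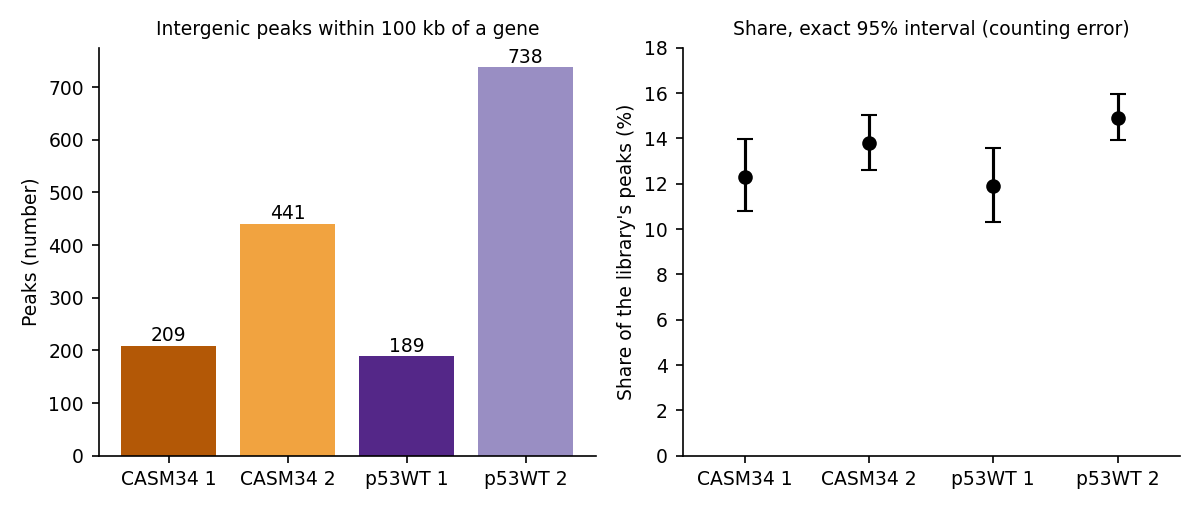
Left, number of intergenic peaks within 100 kb of a gene in each library; right, their share of the library's peaks in percent, with exact 95% Clopper-Pearson intervals that cover counting error only. The number spans 189 to 738, whereas the share stays between 11.9% and 14.9%.

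The peaks showed no common gradient over the distances that the rule allows. Their median distance to the nearest gene end was 22.9 kb and 24.2 kb in CASM34 libraries 1 and 2, against 24.9 kb and 25.2 kb in p53WT libraries 1 and 2. The difference was −1.98 kb between the libraries numbered 1 and −0.97 kb between those numbered 2, and the groups did not overlap (exact permutation p = 0.333, the smallest possible). The sign of the mean difference, −1.48 kb, turned with lists of equal length (0.43 kb), beyond 5 kb from a gene (0.50 kb) and among peaks whose −log10 q reached 5 (0.49 kb). Per 100 Mb of sequence at that distance, CASM34 libraries 1 and 2 had 28.5 and 70.3 peaks from 1 to 5 kb, and 23.7 and 47.4 peaks from 50 to 100 kb. The p53WT libraries 1 and 2 had 26.5 and 82.6 peaks from 1 to 5 kb, and 22.8 and 93.8 peaks from 50 to 100 kb. Density was thus highest in the nearest bin in CASM34 library 2 and lowest there in p53WT library 2. At the rule's inner edge, the closest peaks inside it lay at 1104, 1120, 1016 and 1030 bp, and the closest outside it at 751, 943, 743 and 991 bp (CASM34 libraries 1 and 2, then p53WT libraries 1 and 2). At the outer edge, the farthest peaks inside it lay at 98.2 to 99.8 kb and the closest outside it at 100.03 to 100.04 kb.

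**Figure D2:**
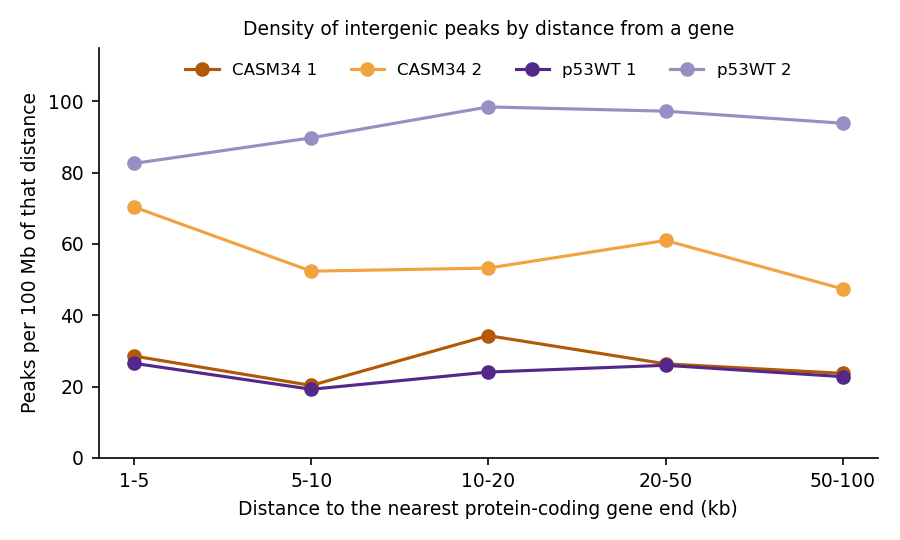
Intergenic peaks per 100 Mb of sequence in 5 ranges of distance (kb) from the nearest protein-coding gene end, 1 line per library. The densities range from 20.3 to 34.3 in CASM34 library 1, 47.4 to 70.3 in CASM34 library 2, 19.2 to 26.5 in p53WT library 1 and 82.6 to 98.4 in p53WT library 2.

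Few of the regions were shared by the libraries of one group only. All 4 libraries called 95 regions, or 8.76%, against 8.27% of the 7727 regions of every class. Both CASM34 libraries and no p53WT library called 9 regions, or 0.829%, against 0.789% of regions of every class. Both p53WT libraries and no CASM34 library called 7, or 0.645%, against 1.11% of regions of every class. Both libraries numbered 2 and no other called 70, or 6.45%, against 7.62% of regions of every class. A single library called 842 regions, 77.6% of the class against 73.5% of the other regions. Of these, 57 were in CASM34 library 1 (5.25% of the class against 6.64% of the other regions), 223 in CASM34 library 2 (20.6% against 20.4%), 46 in p53WT library 1 (4.24% against 5.63%) and 516 in p53WT library 2. The widest gap to the other regions was in p53WT library 2 alone, with 47.6% of the class against 40.9% of the other regions, a difference that was not tested.

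**Figure D3:**
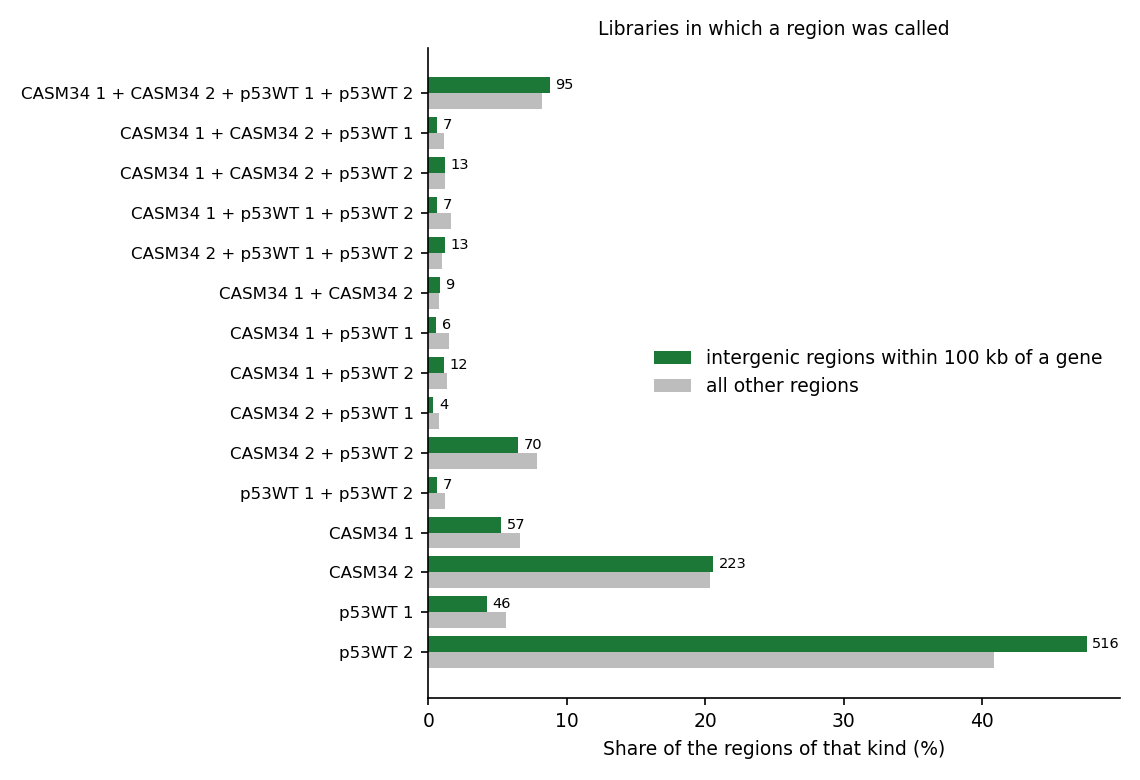
Share in percent of the 1085 intergenic regions within 100 kb of a gene (green, with their number) and of all other regions (grey) for each set of libraries that called them. The longest bar is p53WT library 2 alone with 516 regions, and the group-specific sets hold 9 and 7.

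Within each library, peaks at regions called in all 4 libraries stood highest in its list and peaks of that library alone stood lowest. In CASM34 libraries 1 and 2, peaks at regions called in all 4 libraries had a median rank percentile of 68.9 and 88.9 in the deposited −log10 p, where 100 is the strongest peak of the list, and peaks called in that library alone had 14.1 and 29.3. In p53WT libraries 1 and 2, these medians were 66.5 and 93.2 at regions called in all 4 libraries and 11.5 and 33.3 at regions of that library alone. At regions called in 2 and in 3 libraries, the medians were 31.5 and 23.03 in CASM34 library 1, 54.4 and 71.5 in CASM34 library 2, 29.0 and 26.1 in p53WT library 1, and 55.3 and 71.4 in p53WT library 2, so the order of these middle classes differed between the numbers. Median widths were 402.5 and 420 bp in CASM34 libraries 1 and 2 and 374 and 424 bp in p53WT libraries 1 and 2 at regions called in all 4 libraries, and 199 to 209 bp at regions of 1 library.

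**Figure D4:**
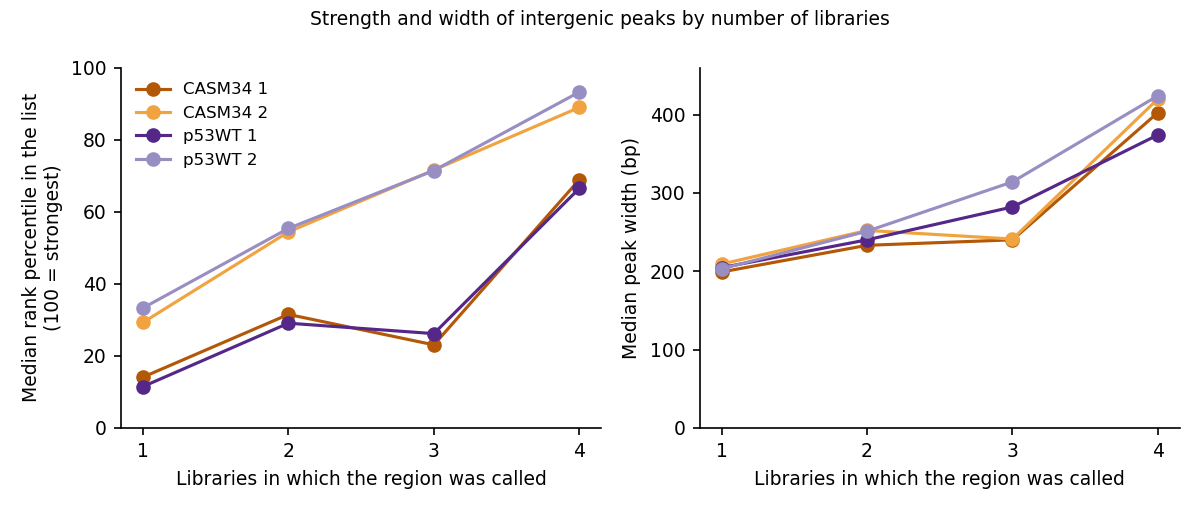
Median rank percentile of intergenic peaks in their own list (left, 100 = strongest) and median width in bp (right) by the number of libraries that called the region, 1 line per library. In every library the highest medians of both are at regions called in all 4 libraries.

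Compared with all other peaks of the same list, intergenic peaks near genes ranked lower. Their median rank percentile was 38.8 and 49.7 in CASM34 libraries 1 and 2 and 43.1 and 43.7 in p53WT libraries 1 and 2, against 51.6, 50.1, 51.1 and 50.9 for all other peaks in the same order. The mean difference was −7.09 ± 5.09 percentile points (SD, n = 4 libraries), lower in 4 of 4, with p = 0.125 in an exact two-sided sign-flip permutation test over libraries, the smallest p that 4 libraries allow. The order differed by kind of peak: medians over 100 kb from genes were 56.3 and 77.3 in CASM34 libraries 1 and 2 and 55.2 and 75.3 in p53WT libraries 1 and 2, above the class, whereas those within 1 kb of a gene end (20.4 and 37.9 in CASM34 libraries 1 and 2, 18.4 and 43.2 in p53WT libraries 1 and 2) and inside genes (30.1 and 36.5 in CASM34, 27.5 and 41.4 in p53WT) were below it. Median widths were 275 and 243 bp in CASM34 libraries 1 and 2 and 293 and 219.5 bp in p53WT libraries 1 and 2, against 233, 230, 227.5 and 224 bp for the other peaks (exact permutation p = 0.25). Restricted to the peaks whose −log10 q reached 5, the rank percentiles differed in the opposite direction, by 2.27, and with distances taken from every RefSeq gene, non-coding ones included, the difference was −1.38.

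Overlap between the libraries of a group was more frequent for this class than for other peaks in 3 of 4 libraries, a difference within the spread between libraries. Of the intergenic peaks near genes, 60.8% in CASM34 library 1 and 29.0% in CASM34 library 2 overlapped a peak of the other CASM34 library, and 66.1% in p53WT library 1 and 16.8% in p53WT library 2 overlapped a peak of the other p53WT library. The other peaks gave 50.6%, 27.4%, 57.1% and 19.1% in the same order, a mean difference of 4.61 ± 5.95 percentage points (SD, n = 4; exact permutation p = 0.375). Overlap with the library of the same number in the opposite group was 56.0% and 44.7% in CASM34 libraries 1 and 2, and 62.4% and 26.6% in p53WT libraries 1 and 2. The other peaks gave close values of 55.5%, 44.2%, 59.3% and 28.9% in the same order. The mean difference across groups was 0.45 ± 2.26 points (SD, n = 4; exact permutation p = 0.625). For the class, overlap across groups was thus above the overlap within the group in both libraries numbered 2 and below it in both numbered 1. In each case the higher overlap was with the longer list. The lists numbered 2 held 3196 and 4946 peaks and those numbered 1 held 1698 and 1591 (CASM34, then p53WT). For the other peaks, overlap across groups was the higher in every library. The part played by list length was not tested. In a further setting, regions of the class in windows of 1 Mb that held 5 or more regions of any class were left out. The within-group difference from all other peaks then turned to −8.69 points, lower in 4 of 4 (exact permutation p = 0.125). Other peaks in such windows were kept, so the class and its comparison were not filtered alike. Such windows held 61.4% of the regions of other classes. With lists of equal length the within-group difference was 4.37 points and with distances taken from every RefSeq gene 9.10 points, each at the same smallest exact permutation p of 0.125.

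The strongest regions called in all 4 libraries sat close to chromosome ends. The first by rank, chr18:107918-109067, lay 4.71 kb from LOC124905450 and inside LOC112268408, a non-coding RNA gene. Its −log10 q was 322.9 and 316.0 in CASM34 libraries 1 and 2, and 322.6 and 320.4 in p53WT libraries 1 and 2. A region on chromosome 12, chr12:133264941-133265307, lay 29.2 kb from ANHX, a homeobox gene, with folds of 35.3 and 36.8 in CASM34 libraries 1 and 2 and 34.6 and 33.7 in p53WT libraries 1 and 2. A region on chromosome X, chrX:156030353-156030736, lay 17.5 kb from IL9R, the interleukin-9 receptor, with folds of 32.2 and 33.4 in CASM34 libraries 1 and 2 and 35.95 and 31.1 in p53WT libraries 1 and 2. Folds and −log10 q values are the authors' for each list and are set side by side here, not compared between lists.

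The 5 regions that came next were of the same kind. Those on chromosome 5 (chr5:10026-11763, 39.2 kb from LOC107987432) and chromosome 10 (chr10:10009-10417, 36.2 kb from TUBB8, a tubulin gene) lay near the start of their chromosomes. One on chromosome 18 (chr18:80262913-80263262) lay 15.6 kb from PARD6G, a cell polarity gene, and a pair on chromosome 10 lay 62.7 kb and 61.7 kb from FRG2B. Within 1 Mb of a chromosome end, taken at the far end as the last RefSeq gene or peak, lay 24 of the 95 regions called in all 4 libraries (25.3%, exact 95% interval 16.9% to 35.2%), 21 of the 148 called in 2 or 3 libraries (14.2%) and 38 of the 842 called in 1 library (4.51%, 3.21% to 6.14%). Of the 10 strongest peaks of the class, 10 and 9 in CASM34 libraries 1 and 2 and 9 and 7 in p53WT libraries 1 and 2 lay there. Such shares were not computed for regions or strong peaks of the other classes. Closeness to chromosome ends is therefore not shown to be particular to this class. Away from the ends, the median rank percentile of the class was 32.2 and 46.2 in CASM34 libraries 1 and 2 and 35.6 and 40.2 in p53WT libraries 1 and 2.

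The regions also crowded into a few windows of 1 Mb. Windows with 5 or more of them numbered 22 of the 646 that held any, and contained 204 regions, or 18.8%. The fullest, on chromosome 8 from 85 to 86 Mb, held 42 regions, 17 of them called in all 4 libraries, next to LRRCC1 and uncharacterized LOC genes. It contributed 23 and 29 peaks in CASM34 libraries 1 and 2 and 25 and 32 peaks in p53WT libraries 1 and 2, a nearly constant number in lists whose lengths differ. The second, on chromosome 19 from 36 to 37 Mb, held 19 regions next to the zinc finger genes ZFP14, ZNF565 and ZNF566, with 12 and 9 peaks in CASM34 libraries 1 and 2 and 7 and 10 peaks in p53WT libraries 1 and 2. The others held 13 regions near CFAP126 and FCGR2A on chromosome 1, and 10 regions each at 87 and at 90 Mb on chromosome 2, the first near PLGLB1, a plasminogen-like gene.

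Counting regions of every class, 78 of the 95 regions called in all 4 libraries (82.1%) lay in windows with 5 or more regions, against 425 of the 842 called in 1 library (50.5%). Over the whole class it was 603 of 1085 (55.6%), against 61.4% of the regions of other classes. The 17 outside such windows were chosen for naming after their values were seen. They included the regions near ANHX, IL9R, TUBB8 and PARD6G already described. Another, chr3:75668895-75669608, lay 2.07 kb from FRG2C, with folds of 17.7 and 17.2 in CASM34 libraries 1 and 2 and 18.3 and 16.1 in p53WT libraries 1 and 2. A region 36.2 kb from DSCAM, a cell adhesion gene of neurons, had folds of 6.98 and 9.87 in CASM34 libraries 1 and 2 and 10.2 and 11.4 in p53WT libraries 1 and 2. A region 40.2 kb from CHRNA9, a nicotinic acetylcholine receptor subunit, had folds of 6.33 and 8.24 in CASM34 libraries 1 and 2 and 6.35 and 6.66 in p53WT libraries 1 and 2.

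By symbol, the nearest gene was a zinc finger gene for 39 regions (3.59%, against 2.59% of protein-coding genes), an olfactory receptor gene for 15 (1.38% against 1.96%), a POTE or ANKRD gene for 16 (1.47% against 0.350%) and a USP17L deubiquitinase gene for 6 (0.553% against 0.125%), of which 3 were called in all 4 libraries. No region had a histone gene (0.396% of protein-coding genes), a protocadherin gene (0.325%) or a TBC1D3 gene (0.0701%) nearest to it. With shares this small, few regions would be looked for in any case, and no family was tested. The shares of genes count symbols and not the sequence near them, and regions cluster. The window on chromosome 19 from 36 to 37 Mb alone held 19 regions next to ZFP14, ZNF565 and ZNF566. The USP17L genes nearest to regions lay in the window on chromosome 4 from 9 to 10 Mb. In all, 839 genes were nearest to a region.

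Over all of a library's peaks of the class, non-coding RNA genes lay at the summits about as often as the sequence itself would give. A summit fell inside or within 1 kb of one in 22.5% and 24.0% of the class in CASM34 libraries 1 and 2 and in 18.5% and 24.9% in p53WT libraries 1 and 2, and such positions make up 22.4% of the 786.9 Mb that lie 1 to 100 kb from a protein-coding gene. That value lies inside the exact 95% interval of every library, the narrowest being 21.8% to 28.2% in p53WT library 2. The difference between groups was 1.54 percentage points (exact permutation p = 1). Peaks over 100 kb from any protein-coding gene gave 1.86% and 6.19% in CASM34 libraries 1 and 2 and 1.75% and 9.07% in p53WT libraries 1 and 2, and the class was higher by 17.8 ± 2.07 points (SD, n = 4), in 4 of 4 libraries (exact permutation p = 0.125, the smallest possible). Of the sequence over 100 kb from genes, 21.7% lies inside or within 1 kb of a non-coding RNA gene, close to the share near genes. Within the class, most peaks at non-coding RNA genes were at long non-coding RNAs. These had 40 and 93 peaks in CASM34 libraries 1 and 2 and 28 and 169 in p53WT libraries 1 and 2. Transfer RNA genes accounted for 1 and 8 peaks in CASM34 libraries 1 and 2 and 1 and 10 in p53WT libraries 1 and 2. The share varied with the number of calling libraries when regions were counted at the summit of their strongest peak. A non-coding RNA gene lay there in 12.6% of the 95 regions called in all 4 libraries. It did so in 29.7% of the 148 called in 2 or 3 libraries and 26.2% of the 842 called in 1. These differences were not tested.

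Pseudogenes, the disabled copies of genes, lay at the summits more often than in the sequence in all 4 libraries. A summit fell inside or within 1 kb of one in 14.8% and 18.4% of the class in CASM34 libraries 1 and 2 and in 16.4% and 16.5% in p53WT libraries 1 and 2, whereas such positions make up 5.70% of the sequence 1 to 100 kb from a gene. The exact 95% intervals were 10.3% to 20.4% and 14.9% to 22.3% in CASM34 libraries 1 and 2 and 11.4% to 22.5% and 13.9% to 19.4% in p53WT libraries 1 and 2. Peaks over 100 kb from a gene gave 0.890% and 3.71% in CASM34 libraries 1 and 2 and 1.17% and 3.45% in p53WT libraries 1 and 2, a difference of 14.2 ± 0.930 points (SD, n = 4), higher in 4 of 4 (exact permutation p = 0.125, the smallest possible). Of the sequence over 100 kb from genes, 1.94% lies inside or within 1 kb of a pseudogene, against the 5.70% near genes. Peaks inside protein-coding genes gave 2.27% and 2.82% in CASM34 libraries 1 and 2 and 2.08% and 2.36% in p53WT libraries 1 and 2. Peaks within 1 kb of a gene end gave 7.79% and 2.09% in CASM34 libraries 1 and 2 and 11.9% and 1.81% in p53WT libraries 1 and 2. For these gene-end peaks the exact 95% intervals were 2.91% to 16.2% in CASM34 library 1 and 4.91% to 22.9% in p53WT library 1. Both overlapped the intervals of the class. Outside windows dense in regions of any class, intergenic peaks near genes gave 7.02% of 57 and 14.0% of 157 in CASM34 libraries 1 and 2. In p53WT libraries 1 and 2 they gave 10.9% of 46 and 11.9% of 335. No intervals were computed for these smaller sets, so whether each share exceeds the 5.70% of the sequence was not tested. The pseudogene measure was added after the peaks had been examined, and the placing of reads that match several copies of a sequence is not given in the sources used here.

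**Figure D5:**
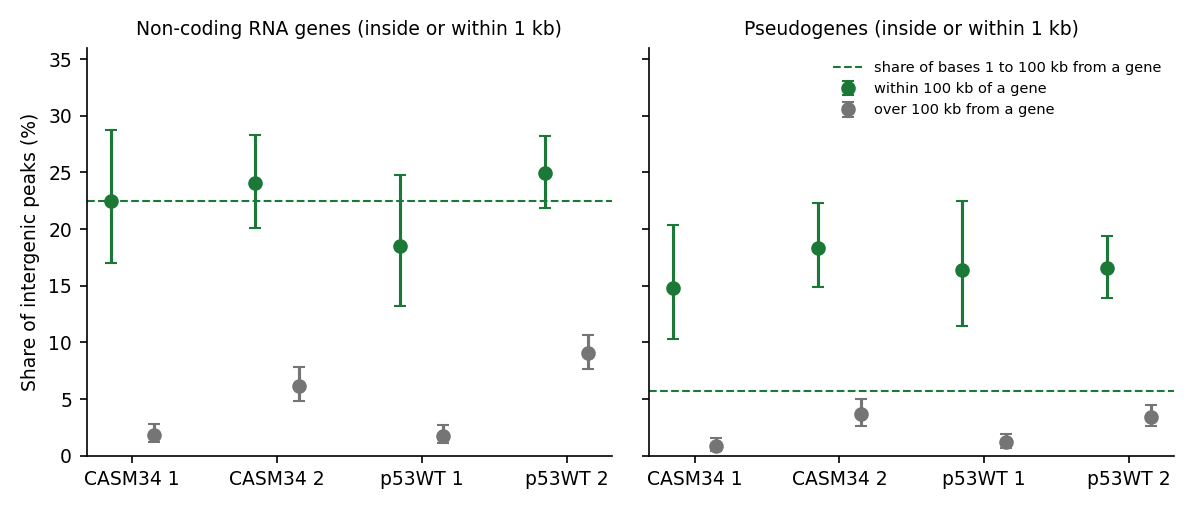
Share in percent of peaks with a summit inside or within 1 kb of a non-coding RNA gene (left) or a pseudogene (right), for intergenic peaks within 100 kb of a gene (green) and over 100 kb from one (grey), with exact 95% intervals for counting error; the dashed line is the share of the sequence 1 to 100 kb from a gene. The green points straddle the line for non-coding RNA genes and lie above it for pseudogenes, at 14.8% to 18.4% against 5.70%.

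The 10 best-ranked regions called in at least 2 libraries with a non-coding gene at the summit included 3 inside LOC112268408 on chromosome 18 and the LINC01596 and miR-34a regions. Inside LOC107985840, 8.12 kb from EIPR1, which acts in endosomal transport, the −log10 q was 20.4 and 30.1 in CASM34 libraries 1 and 2 and 30.1 and 30.5 in p53WT libraries 1 and 2. Next to LOC124904137, 15.2 kb from CCDC200, it was 20.4 and 36.4 in CASM34 libraries 1 and 2 and 17.0 and 35.5 in p53WT libraries 1 and 2. Inside LOC105375592, 25.2 kb from INSIG1, a sterol-regulated protein of the endoplasmic reticulum, it was 9.77 in CASM34 library 2 and 14.3 in p53WT library 2, with no peak in either library numbered 1.

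The regions called in both CASM34 libraries and in neither p53WT library were weak to middling in their lists. The best-ranked, chr3:8411861-8412349, lay 89.6 kb from LMCD1, a LIM-domain regulator of transcription, with a −log10 q of 10.9 and 5.21 in CASM34 libraries 1 and 2. Others lay 5.31 kb from TPGS1, a subunit of the tubulin polyglutamylase complex (−log10 q of 5.21 and 7.69), 64.4 kb from KDM8, a JmjC-domain dioxygenase (4.24 and 5.60), and 16.7 kb from VASH1, a tubulin carboxypeptidase (5.51 and 2.25), in CASM34 libraries 1 and 2 in that order. Further ones lay nearest to ZNF565, PLGLB1, FRG2B and LOC124907854, all in windows of 1 Mb that also held regions called in all 4 libraries. The mean rank percentiles of the 8 best-ranked ran from 29.4 to 65.3, against 97.5 to 99.9 for the 8 best-ranked regions called in all 4 libraries.

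The 7 regions called in both p53WT libraries and in neither CASM34 library had mean rank percentiles of 16.1 to 53.4. The best-ranked, chr17:27211519-27211969, lay 82.3 kb from WSB1, a substrate receptor of a ubiquitin ligase, with a −log10 q of 4.80 and 4.73 in p53WT libraries 1 and 2. One 5.43 kb from FOXQ1, a forkhead transcription factor, had 2.88 and 2.82, and one 11.6 kb from CAMP, the cathelicidin antimicrobial peptide, had 6.85 and 1.39, in p53WT libraries 1 and 2 in that order. The others lay nearest to LMLN, LOC101929601, SLC9A3 (an intestinal and renal sodium-hydrogen exchanger) and ZFP14. None of the genes named for either group-specific set was in the p53 target lists.

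The libraries numbered 2 of both groups called 70 regions that no library numbered 1 did. Besides LINC01596, INSIG1 and the miR-34a locus, the best-ranked of these lay 64.3 kb from LOC124903767 (−log10 q of 13.8 in CASM34 library 2 and 9.26 in p53WT library 2), 17.0 kb from LOC124907874 (11.8 and 8.07), 6.25 kb from MMP8, the neutrophil collagenase (8.82 and 8.34), 5.41 kb from HIP1, an endocytic adaptor (6.52 and 4.59), and 27.8 kb from ZFP37 (7.24 and 4.20). The mean rank percentiles of the 8 best-ranked ran from 73.2 to 90.2.

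Known p53 target genes rarely had an intergenic peak nearby. In CASM34 library 1, 1 of the 83 listed protein-coding targets had one within 100 kb of an end, where 1.96% of all protein-coding genes did. In CASM34 library 2, 2 of them did, where 4.75% of all protein-coding genes did. In p53WT library 1 none did, where 1.68% of all protein-coding genes did, and in p53WT library 2, 7 did, where 7.57% of all protein-coding genes did. The listed targets thus lay near the level of all protein-coding genes or under it in every library. By role, the genes with a peak were CDKN1A in CASM34 library 2, and CDKN1A and ZMAT3, an RNA-binding p53 target, in p53WT library 2, out of 20 genes of arrest and feedback. Out of 23 apoptosis genes, they were PERP, a membrane protein, in CASM34 library 2, and PERP and BCL2L1, which encodes BCL-XL, in p53WT library 2. Out of 20 DNA repair genes, they were XPC, which recognizes damaged DNA, and FANCC, of the Fanconi pathway, both in p53WT library 2. Out of 20 genes of metabolism and redox control, they were SOD2, the mitochondrial superoxide dismutase, in CASM34 library 1, and ACER2, a ceramidase, in p53WT library 2. The peaks of ZMAT3, BCL2L1, XPC and ACER2 lay nearer to other protein-coding genes, PIK3CA, COX4I2, CHCHD4 and MAP1LC3BP1. They were 48.2, 32.4, 80.4 and 12.4 kb from the listed targets, with a −log10 q of 2.73, 1.84, 1.98 and 2.02. Those of SOD2 and FANCC lay at 49.7 and 19.4 kb, with 3.18 and 1.70. Of 20 liver genes that are not p53 targets, APOB had a peak at 4.92 kb in CASM34 library 2, and no other library had any.

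The peaks near CDKN1A were weak and did not coincide between groups. In CASM34 library 2 the peak, chr6:36667273-36667444, lay 9.11 kb upstream of the gene with a fold of 4.03 and a −log10 q of 1.93. In p53WT library 2 the peak, chr6:36661016-36661195, lay 15.4 kb upstream of it with a fold of 4.32 and a −log10 q of 2.49. Neither library numbered 1 listed an intergenic peak there. The peaks near PERP lay on opposite sides of the gene, at 27.7 kb in CASM34 library 2 and 22.1 kb in p53WT library 2, with a −log10 q of 1.37 in CASM34 library 2 and 1.35 in p53WT library 2. No listed protein-coding target was the nearest protein-coding gene of a region called in 2 or more libraries.

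Listed p53-linked non-coding RNAs had more intergenic peaks nearby in the libraries numbered 2. Of the 13 symbols listed, 11 matched the annotation by symbol. In CASM34 library 2, 8 of the 11 had one within 100 kb of either end, from 6 distinct peaks, where 4.35% of all non-coding RNA genes did. In p53WT library 2, 4 of the 11 had one, from 2 distinct peaks, where 7.03% of all non-coding RNA genes did. None had one in CASM34 library 1, where 1.97% of all non-coding RNA genes did, or in p53WT library 1, where 1.84% did. MIR34AHG, LNCTAM34A, and PANDAR and DINOL, which share the peaks near CDKN1A, had one in both CASM34 library 2 and p53WT library 2. The other 4 had one in CASM34 library 2 alone: LINC-PINT, inside which a peak lay 3.63 kb from an end with a −log10 q of 1.81; PVT1, at 137 bp with 1.66; NEAT1, the scaffold RNA of paraspeckles, at 31.7 kb with 2.77; and TP53TG1, at 36.5 kb with 1.81. Apart from the miR-34a locus, these peaks had −log10 q values under 3, and whether the groups differ at them cannot be tested with 1 library each.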

How the data were processed

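p53 ChIP-seq peak lists were analysed for 2 CASM34 and 2 p53WT libraries, 1 list per library. Per the submitters' processing notes, Trim Galore, Bowtie2 and bedtools were used with GRCh38; no source used here names the peak caller, control or threshold. Each deposited list gives, per peak, the authors' fold (a ratio over background), −log10 p, −log10 q and a score, and no read counts, so depth is unknown. Rows sharing an interval were taken as 1 peak with the highest −log10 p. Classes were set by midpoint, and gene, non-coding RNA and pseudogene annotation and promoter sequences are from RefSeq GRCh38.p14. Libraries were compared by exact two-sided permutation over the 4 libraries, and the class with other peaks by exact sign flips over libraries (Python 3.11.15, pandas 2.3.3, NumPy 2.4.6, SciPy 1.17.1). The scripts were tested on simulated peaks with known classes. Named regions are the 8 best-ranked by mean rank percentile of each of 4 calling patterns, the 10 best-ranked with a non-coding gene at the summit, listed genes within 10 kb of a peak, and the 5 fullest windows of 1 Mb; anything else was named after its values were seen. The class, the gene lists and the tests were chosen with earlier results of these data known. Lengths of sequence by distance count every annotated base, gaps of the assembly included. Alternatives were thresholds, distances, gene sets, overlaps, dense windows and each library left out.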

Additional observations from a re-analysis of the deposited data

Results flagged for a closer look

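The CASM34 minus p53WT difference had opposite signs between the libraries numbered 1 and those numbered 2 in 5 of 6 measures of the intergenic peaks near genes; the median distance, −1.98 and −0.97 kb, kept its sign. The number of peaks differed by 20 between the libraries numbered 1 and by −297 between those numbered 2. Their share of all peaks differed by 0.43 and −1.12 percentage points. The share at non-coding RNA genes differed by 3.97 and −0.90 points, and the share at pseudogenes by −1.57 and 1.84 points. The median width differed by −18 and 23.5 bp. With 1 library per group at each number, none of these changes of sign was tested.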

How the results depend on the processing

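Of 157 recomputed values over 12 results, 124 kept their direction, or stayed within 1.5 times for counts. The number of intergenic peaks near genes, CASM34 minus p53WT, was 4 with a −log10 q of at least 5, 4.5 with lists of equal length and −413 to 136 leaving out each library. The share of all peaks was 0.42 and 0.34 points with a −log10 q of at least 3 and 5, 0.28 with equal lengths, 0.14 at most 50 kb from a gene and −1.87 to 1.17 leaving out each library. The share at non-coding genes was −0.26 points with equal lengths and −1.67 to 4.74 leaving out each library. The median distance, added after seeing the data, was 0.49 kb with a −log10 q of at least 5, 0.43 kb with equal lengths and 0.50 kb beyond 5 kb from a gene. Without the class's regions in dense windows, but with the other peaks there kept, the within-group overlap difference was −8.69 points. With a −log10 q of at least 5, the rank difference was 2.27. CASM34-specific regions numbered 3 when the −log10 q had to reach 5, 5 within 50 kb, 2 without dense windows and 16 to 232 leaving out each library. p53WT-specific regions numbered 3 and 1 when the −log10 q had to reach 3 and 5, 4 with equal lengths, 4 within 50 kb, 2 without dense windows and 14 to 523 leaving out each library; leaving out a library of the same group turns these into regions of 1 library. Regions called in all libraries numbered 17 without dense windows. Where values changed otherwise, the cause was not tested. The replicate block and the crossed numbers leave a mean difference unchanged by arithmetic, so they bear only on p. Their values nonetheless count among the 124 that kept their direction. With the replicate block, the differences were −138.5 peaks, −0.35 points and 1.54 points (exact permutation p = 1, smallest possible 0.5), and −1.48 kb in median distance (exact permutation p = 0.5). Over the 1085 regions the differences of the 2 numbers correlated at −0.149, and the labels tie the numbers to nothing shared. With crossed numbers, the difference was −138.5 peaks. Unknown depth limits every statement on a missing peak.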
